A study of Mus musculus with 8 samples.

Results

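Mitochondria fuse and divide continuously, and 10 genes at the core of that cycle were followed here in immortalized mouse embryonic fibroblasts without and with OPA1. They are Opa1 itself, the 2 inner membrane proteases that cut its protein (Oma1 and Yme1l1), the 2 outer membrane mitofusins (Mfn1 and Mfn2), the fission GTPase (Dnm1l) and 4 of its outer membrane receptors (Fis1, Mff, Mief1 and Mief2). The genes were chosen by name, all 10 were found once in each deposited table of 49315 genes, and all 10 were among the 14272 genes at 1 TPM (a transcript level per exon length, scaled to the same total in every library) or more in at least 4 libraries. The series holds 8 RNA sequencing libraries, 4 of fibroblasts with the genotype Opa1-/- and 4 of Opa1-/- fibroblasts reconstituted with OPA1 (Opa1-/- + OPA1). Both groups thus carry the Opa1-/- genotype, neither received a treatment, and no library of fibroblasts with an intact Opa1 gene was analysed here. The labels give neither the species and promoter of the added OPA1 nor the number of clones, nor whether each library had its own culture. The p-values here therefore weigh differences against a spread between libraries that may be technical only.

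OPA1 is a dynamin-like GTPase that fuses inner membranes and holds cristae in shape. Its long forms are anchored in the membrane and support fusion, and they are cut to short forms by OMA1, which is activated by stress, and by YME1L, which is active in healthy mitochondria. Outer membranes are fused by the mitofusins, while division is carried out by DRP1, the product of Dnm1l, which is recruited from the cytosol by MFF, by MID51 and MID49 (products of Mief1 and Mief2) and, with a debated role in mammals, by FIS1. Much of this machinery is controlled on the protein, by cleavage, phosphorylation and ubiquitin, which RNA levels do not show.

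Reads recovered from the TPM steps came to 5.29e+07 to 5.78e+07 per library, and between 394 and 487 of them fell on Oma1, the gene with the fewest. Fibroblast markers were present, with 9 of 10 at a mean of 1 TPM or more. Their summed level was 2894 to 3212 TPM in the Opa1-/- libraries and 3400 to 3481 TPM in the reconstituted ones, led by Vim at 1347 to 1574 TPM. The listed genes did not all go with the sum. Col1a1, Col1a2, Sparc, Pdgfra, Pdgfrb and S100a4 were lower in every Opa1-/- library than in any reconstituted one. Col3a1 was higher in every Opa1-/- library, and Fn1, Vim and Thy1 overlapped between the groups. Of the epithelial markers 1 of 5 reached a mean of 1 TPM (Cdh1, at 7.01 to 15.4 TPM). Their sum was 13.3 to 16.5 TPM in the Opa1-/- libraries and 7.67 to 9.68 TPM in the reconstituted ones. The fibroblast and epithelial sums thus did not overlap between the groups, and their part in the differences reported here was not tested. Blood markers summed to 2.76 to 7.16 and 3.59 to 5.66 TPM, led by Cd68 (2.166 to 7.09 TPM) and with Itgam at 0 in every library. Neural markers summed to 5.56 to 8.56 and 5.25 to 5.69 TPM, led by Snap25 (5.09 to 8.28 TPM), and 1 of 5 reached 1 TPM in each of these lists. No endothelial or striated muscle marker did, with sums of 0.286 to 0.495 and 0.205 to 0.329 TPM for the first (most abundant gene Kdr) and 0.0983 to 0.422 and 0.04999 to 0.202 TPM for the second (most abundant gene Actn2, with Myog at 0 throughout). Opa1-/- replicate 4 stood apart from the other Opa1-/- libraries. Its reads differed from theirs with a chi-square per degree of freedom of 33.4 to 47.5, against 7.84 to 24.3 among the others. Its deviation from the group mean ran along exon length (Spearman rho -0.46 across 9406 genes, which are not independent). Replicates 1 and 3 ran the other way (0.35 and 0.47), as deviations from a shared mean in part must. In reconstituted libraries rho was -0.27 to 0.24. Reconstituted replicate 3 stood apart in its own group too. Its chi-square per degree of freedom was 15.2 to 26.0, against 4.72 to 7.92 among the other reconstituted libraries. The difference between the groups ran along length as well (rho -0.21). Values without Opa1-/- replicate 4, or with each library's trend along exon length and GC content removed, are therefore given below for some genes. They may differ for the other genes too, and the plot of differences shows both for all 10 genes.

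All levels below are TPM scaled between libraries, listed for replicates 1 to 4 of a group in turn, and all differences are Opa1-/- minus Opa1-/- + OPA1 on the scale of log2(scaled TPM + 1). Percent changes were computed from these differences and are thus changes of TPM + 1. Changes of TPM itself are larger, most so for genes at low levels. Of the 10 genes, Fis1 and Mief2 were higher and Mfn1 was lower in the Opa1-/- libraries at an adjusted p below 0.05, and 7 did not pass. Among all genes tested, 16.3% were called higher and 16.8% lower, so 2 and 1 of 10 are shares close to that background. The median difference of the 10 genes was 0.01 against -0.00 for all tested genes, and the median absolute difference was 0.13 against 0.16. In 3 genes (Fis1, Mief2 and Mff) every Opa1-/- library lay above every reconstituted library, and in 2 (Mfn1 and Mfn2) every one lay below. Such separation was seen for 17.4% of all genes in the first direction and 18.9% in the second. The plot of levels by library shows the 5 separated genes and the 5 in which the groups overlap.

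**Figure D1:**
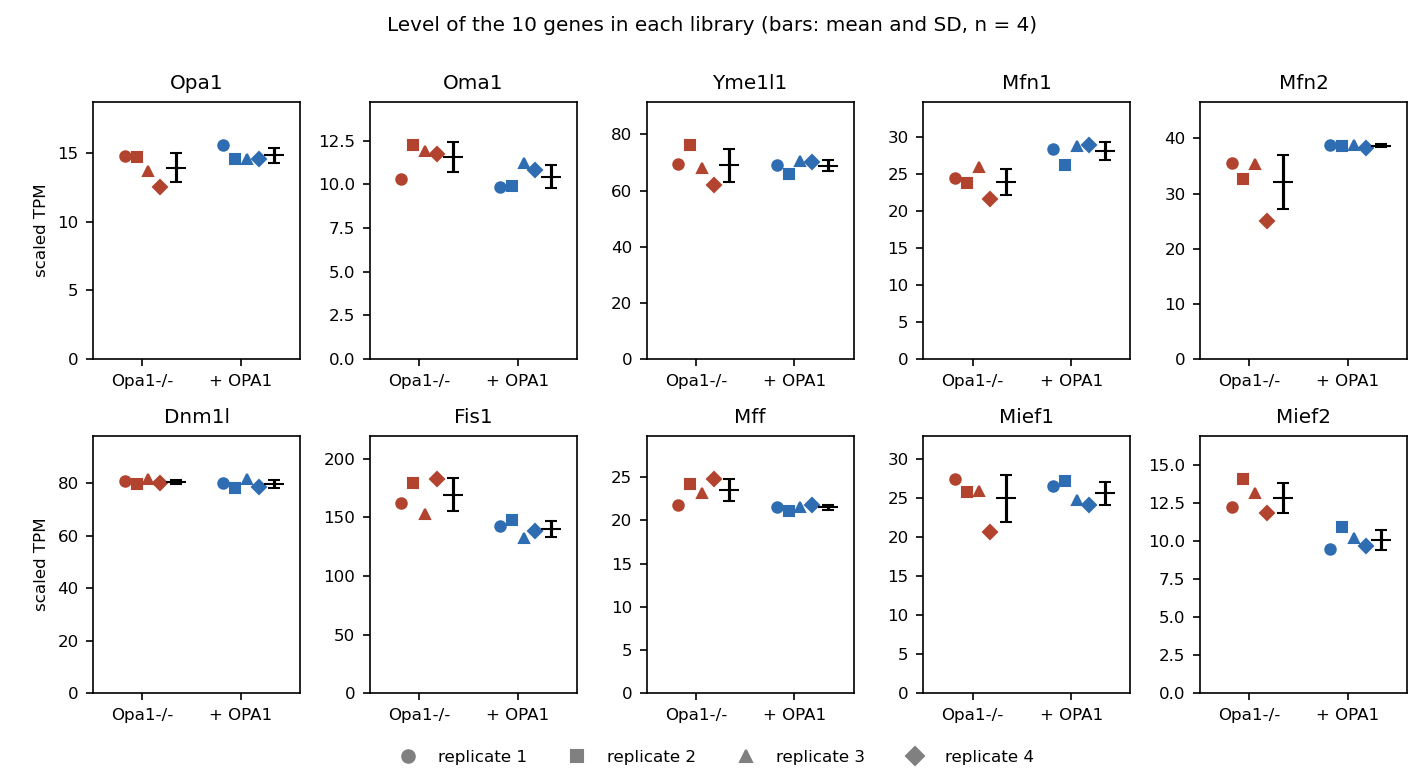
Level of each of the 10 genes (vertical axis, scaled TPM from 0) in the 4 Opa1-/- libraries (red) and the 4 Opa1-/- + OPA1 libraries (blue), with symbols for the replicate numbers and black bars for the mean and SD. Fis1 and Mief2 lie higher and Mfn1 and Mfn2 lower in every Opa1-/- library, Mff is narrowly separated, and Dnm1l sits between 78.3 and 81.7 TPM in all 8 libraries.

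Opa1, on chromosome 16 (GRCm38, 29579334 to 29654884, plus strand, 8 annotated transcripts), had almost the same total RNA level in both groups. Its levels were 14.8, 14.7, 13.7 and 12.5 TPM in Opa1-/- libraries against 15.6, 14.6, 14.5 and 14.5 TPM in reconstituted ones. The ranges overlapped, with Opa1-/- replicates 3 and 4 below all other libraries and reconstituted replicate 1 above them. Opa1-/- minus reconstituted came to -0.09 (SE 0.06, adjusted p = 0.305). The 95% confidence interval of -0.22 to 0.05 corresponds to a change of -14.2% to 3.42% in the total plus 1 TPM. In RNA from whole cultures, fewer cells that express a gene and less RNA per cell cannot be told apart, here and for the genes that follow. Without Opa1-/- replicate 4 it was -0.04, and with the trends along length and GC content removed -0.01. The total over the gene does not separate the genotype labels and so does not check them. Which exons were disrupted, and whether reads of the added OPA1 count towards Opa1, the labels do not give.

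The stretch before the Opa1 start carries a sequence that is rare among promoters. A set of 5 short motifs was searched on both strands of the 250 bases before each start in RefSeq's promoter table (GRCm38.p6), which held 15 windows for the 10 genes. They were the core of the site of NRF1, a factor tied to nuclear genes for mitochondria (GCATGCGC), the amino acid response element bound by ATF4 (TGATGNAA), the cyclic AMP response element (TGACGTCA), an ETS site (CCGGAAG) and the E-box (CACGTG). Opa1 was the member with the NRF1 core, in 2 overlapping matches on opposite strands that start 59 and 57 bases before the start, and 2.26% of all 32851 promoter windows hold it. No window of the 10 genes held TGATGNAA or TGACGTCA, which 3.45% and 1.55% of all windows hold. A match is a description of letters and not of binding. The sequence below is the Opa1 stretch at chr16:29579265-29579294, plus strand, with both matches in capitals.

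Opa1: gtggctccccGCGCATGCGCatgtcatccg

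The proteases differed in level more than between groups. Yme1l1 (chromosome 2, 23156369 to 23199260, plus strand) was at 69.5, 76.3, 67.9 and 61.8 TPM in Opa1-/- libraries and at 68.9, 66.0, 70.4 and 70.1 TPM in reconstituted ones. The Opa1-/- libraries enclosed the reconstituted ones on both sides. Their difference of -0.00 had an adjusted p of 0.983 and a 95% confidence interval of -0.14 to 0.13. With the trends along length and GC content removed it was 0.11 (adjusted p = 0.0651). Oma1 (chromosome 4, 103313812 to 103371868, plus strand) was at 10.3, 12.3, 11.9 and 11.7 TPM against 9.85, 9.90, 11.2 and 10.8 TPM. Opa1-/- replicates 2, 3 and 4 were above all reconstituted libraries and replicate 1 fell among them, for a difference of 0.13 (SE 0.07, adjusted p = 0.169). The median over 578 genes of chromosome 4 was -0.15, and with the median of each chromosome removed Oma1 was at 0.28 with adjusted p = 0.0156. Within a library the Oma1 level was 0.168 ± 0.0178 times that of Yme1l1 in Opa1-/- libraries and 0.152 ± 0.00690 times in reconstituted ones (mean ± SD, n = 4; exact permutation p = 0.171, 0.214 adjusted over 5 ratios), so the stress-activated protease was the rarer transcript throughout. On the log2 scale this ratio differed by 0.15, by 0.087 without Opa1-/- replicate 4 and by 0.011 (adjusted p = 0.8286) with the trends along length and GC content removed.

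Both mitofusin transcripts were lower in every Opa1-/- library than in any reconstituted library, and only Mfn1 passed the test. Mfn1 (chromosome 3, 32529465 to 32579239, plus strand) was at 24.4, 23.7, 25.9 and 21.6 TPM in Opa1-/- libraries and at 28.4, 26.3, 28.7 and 29.0 TPM in reconstituted ones. The closest libraries, Opa1-/- replicate 3 and reconstituted replicate 2, were less than 1 TPM apart. Mfn1 fell by 0.23 (SE 0.06, adjusted p = 0.0187), or 14.5%. The difference was -0.18 without Opa1-/- replicate 4 (adjusted p = 0.0188). With the trends along length and GC content removed it was -0.17 (adjusted p = 0.0186). The call was lost on deposited TPM without further scaling (adjusted p = 0.103) and without reconstituted replicate 3 (0.0565) or 4 (0.0544).

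Mfn2 (chromosome 4, 147873599 to 147904704, minus strand) was at 35.6, 32.7, 35.3 and 25.1 TPM against 38.9, 38.7, 38.9 and 38.3 TPM. The reconstituted libraries were tightly grouped, with a coefficient of variation of 0.743%, while Opa1-/- replicate 4 was far below the rest and brought that group's to 15.2%. Mfn2 differed by -0.27 (SE 0.10, adjusted p = 0.0615), with a 95% confidence interval of -0.49 to -0.05. Without that library the difference was smaller but passed (-0.16, adjusted p = 0.0103), and it also passed without Opa1-/- replicate 1 (0.0485) or 3 (0.0472), over protein-coding genes only (0.0355), with limma-voom on recovered reads (0.0343) and with the trends along length and GC content removed (0.0449). With chromosome medians removed it was -0.13 (adjusted p = 0.380), as Mfn2 shares chromosome 4 and its median of -0.15. The Mfn1 to Mfn2 ratio within libraries was 0.751 ± 0.0746 against 0.726 ± 0.0338 (exact permutation p = 0.714, also after adjustment over 5 ratios), and was highest in Opa1-/- replicate 4 at 0.859. Its log2 difference of 0.045 became -0.021 without that library.

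Dnm1l, the gene of the fission GTPase (chromosome 16, 16312230 to 16358959, minus strand), differed least between the groups after Yme1l1. It was at 80.8, 79.5, 81.5 and 79.9 TPM in Opa1-/- libraries and at 80.2, 78.3, 81.7 and 78.4 TPM in reconstituted ones. The groups overlapped over nearly their whole range, with a difference of 0.01 and a 95% confidence interval of -0.06 to 0.09 (adjusted p = 0.769), the narrowest of the 10. That interval corresponds to a change of -3.92% to 6.16%. With the trends along length and GC content removed the difference was 0.08 (adjusted p = 0.0762). The antisense gene Gm49521 shares 243 of its 5203 exon bases (4.67%), and no source used here says whether counting was by strand. Relative to Opa1, Dnm1l was at 5.80 ± 0.451 against 5.38 ± 0.194 (exact permutation p = 0.143, 0.214 adjusted over 5 ratios). The log2 difference was 0.11, and 0.061 without Opa1-/- replicate 4.

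Of the 4 receptors of DRP1, Fis1 and Mief2 rose, and Mff and Mief1 did not pass. Fis1, a small tail-anchored outer membrane protein (chromosome 5, 136953275 to 136966234, plus strand), was at 162, 179, 152 and 183 TPM in Opa1-/- libraries and at 142, 147, 132 and 138 TPM in reconstituted ones. The lowest Opa1-/- library, replicate 3, was still above the highest reconstituted one, replicate 2. Fis1 rose by 0.27 (SE 0.06, adjusted p = 0.0106), or 20.5%, and by 0.23 without Opa1-/- replicate 4. At 1714 exon bases it is the shortest of the 10 genes, against a median of 3709.5 for all genes tested, and with the trends along length and GC content removed the rise was 0.21 (adjusted p = 0.00457). It was the most abundant of the 4 receptor transcripts, at 71.0% to 76.1% of their summed TPM in Opa1-/- libraries and 70.1% to 71.4% in reconstituted ones.

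Mief2, which encodes MID49 (chromosome 11, 60728398 to 60732951, plus strand), was at 12.2, 14.1, 13.1 and 11.8 TPM against 9.49, 10.9, 10.2 and 9.68 TPM. All 4 Opa1-/- libraries were above all 4 reconstituted libraries. Mief2 rose by 0.32 (SE 0.07, adjusted p = 0.00637), or 24.8%, the largest difference of the 10 genes, and 20.9% of all genes tested differed by more. It rests on 489 to 691 recovered reads per library. Fis1 and Mief2 passed in each of 20 alternative analyses, with differences of 0.21 to 0.32 for Fis1 and 0.27 to 0.36 for Mief2.

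The 2 genes that rose did not share a motif among those searched. The window before the Fis1 start holds an ETS match 18 bases before the start, also found before Yme1l1 (at 73 and 19 bases), Mfn1 (at 44) and Mief1 (at 65), and 6.91% of all windows hold it. The window before Mief2 holds an E-box 24 bases before the start, which 6.02% of all windows hold. The last 150 bases of both windows are shown from RefSeq (GRCm38.p6), with the match in capitals, for Fis1 at chr5:136953125-136953274 and for Mief2 at chr11:60728248-60728397, both on the plus strand.

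Fis1: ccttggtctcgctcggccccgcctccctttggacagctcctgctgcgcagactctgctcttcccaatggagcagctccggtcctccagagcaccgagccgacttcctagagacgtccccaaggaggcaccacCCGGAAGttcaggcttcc

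Mief2: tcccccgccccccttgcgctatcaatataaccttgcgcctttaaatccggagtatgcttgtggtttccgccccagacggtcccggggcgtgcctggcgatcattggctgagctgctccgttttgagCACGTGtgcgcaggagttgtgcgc

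Mff, a tail-anchored receptor that recruits DRP1 (chromosome 1, 82724890 to 82752394, plus strand), was at 21.80, 24.2, 23.1 and 24.8 TPM against 21.6, 21.04, 21.5 and 21.78 TPM. The groups did not overlap, but Opa1-/- replicate 1 and reconstituted replicate 4 were almost equal. The difference was 0.12 (SE 0.05, adjusted p = 0.0783). It passed with upper-quartile scaling (0.0439), without Opa1-/- replicate 1 (0.0322), and, at 0.25, with the trends along length and GC content removed (adjusted p = 0.00777). Mff has the most exon bases of the 10 (9757) and the lowest GC content (37.3%), and that setting removed both trends at once.

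Mief1, which encodes MID51 (chromosome 15, 80234018 to 80253371, plus strand), was at 27.5, 25.7, 25.9 and 20.7 TPM against 26.6, 27.2, 24.7 and 24.1 TPM. Opa1-/- replicate 4 was the lowest and replicate 1 the highest of the 8, and Mief1 differed by -0.04 (SE 0.08, adjusted p = 0.739), with a 95% confidence interval of -0.23 to 0.15. The sign turned without Opa1-/- replicate 4 (0.04) and with the trends along length and GC content removed (0.03). A gene on the same strand, AC140267.1, shares 213 of its 8106 exon bases (2.63%).

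The proportion of the paralogs was compared within libraries. The Mief2 to Mief1 ratio was 0.445, 0.547, 0.507 and 0.572 in Opa1-/- libraries and 0.357, 0.402, 0.413 and 0.402 in reconstituted ones, without overlap. The exact two-sided permutation p was 0.0286, the smallest that 4 libraries against 4 can give, and 0.143 after adjustment over the 5 ratios compared, so this result failed the correction. On the log2 scale the difference was 0.39, and 0.23 (adjusted p = 0.286) with the trends along length and GC content removed. Fis1 stood at 7.20 ± 0.411 times Mff in Opa1-/- libraries and 6.52 ± 0.370 times in reconstituted ones (exact permutation p = 0.0857, 0.214 adjusted). That ratio had the opposite sign, -0.04 on the log2 scale in place of 0.14, with the trends along length and GC content removed. This ratio and the other 3 overlapped between the groups.

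**Figure D2:**
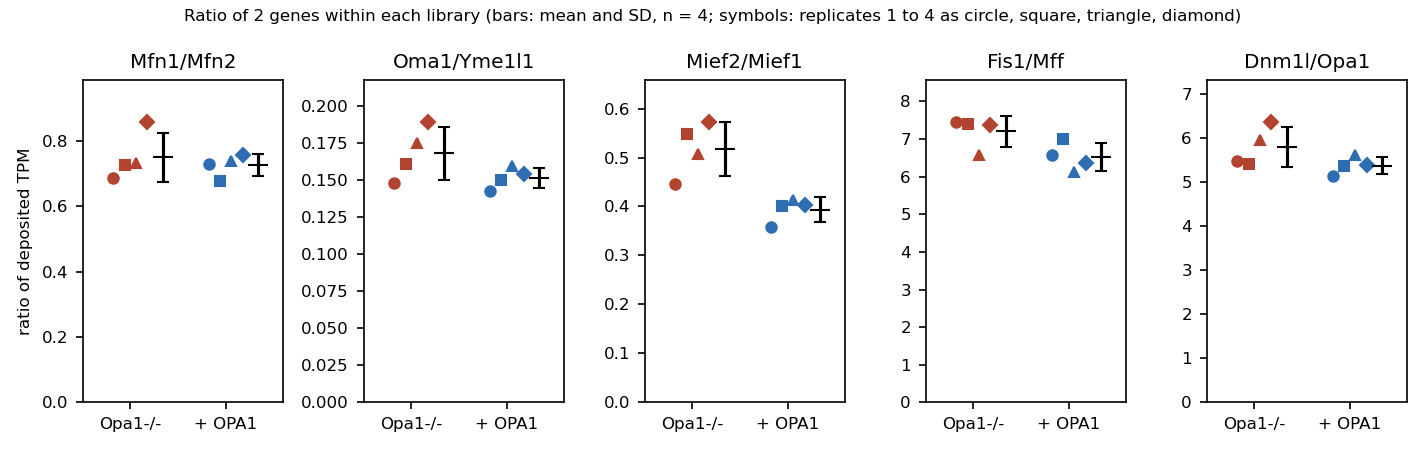
Ratio of the deposited TPM of 2 genes within each library (vertical axes, from 0), which does not depend on how libraries are scaled, with black bars for the mean and SD of 4 libraries. Mief2/Mief1 is the pair whose groups do not overlap, at 0.445 to 0.572 in Opa1-/- libraries and 0.357 to 0.413 in reconstituted ones.

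Summed by role, the 3 fusion transcripts (Opa1, Mfn1 and Mfn2) came to 74.7, 71.1, 74.9 and 59.2 TPM in Opa1-/- libraries and to 82.9, 79.6, 82.1 and 81.8 TPM in reconstituted ones. The 5 fission transcripts (Dnm1l, Fis1, Mff, Mief1 and Mief2) came to 305, 323, 296 and 320 TPM against 280, 285, 270.2 and 272 TPM. Fission transcripts stood at 3.95 to 5.40 times the fusion transcripts in Opa1-/- libraries and at 3.29 to 3.58 times in reconstituted ones. Fis1 is the largest part of the fission sum and Mfn2 of the fusion sum, so these sums follow those genes, and no test was made of them.

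**Figure D3:**
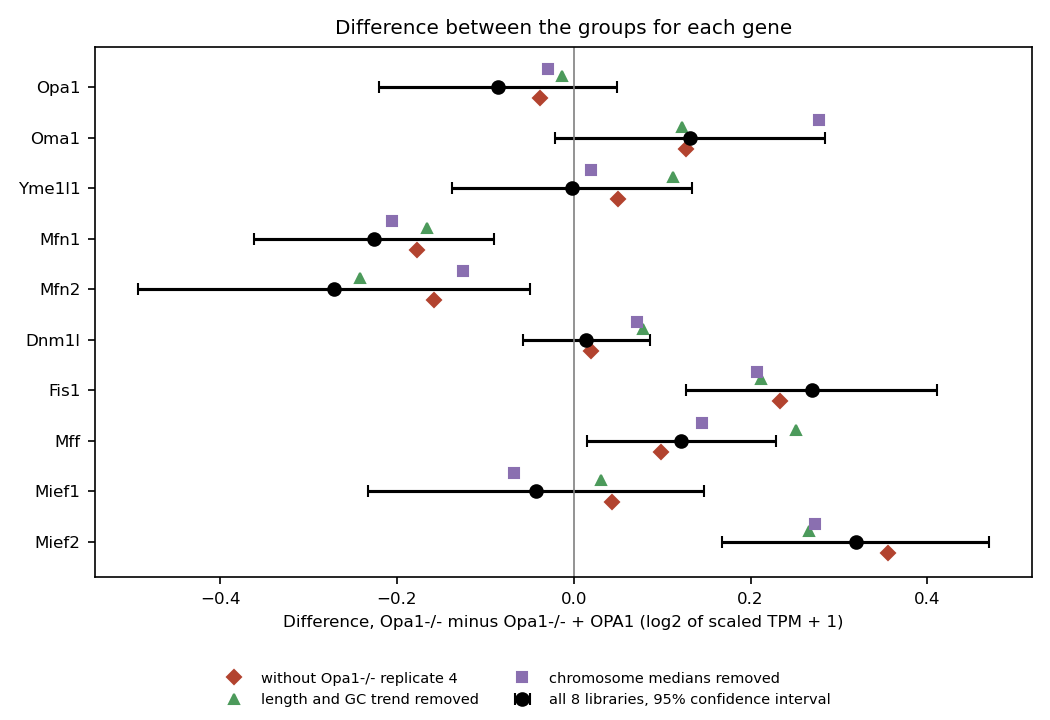
Difference of each gene (horizontal axis, Opa1-/- minus Opa1-/- + OPA1, log2 of scaled TPM + 1) with its 95% confidence interval from all 8 libraries (black), and the same difference without Opa1-/- replicate 4 (red), with length and GC trends removed (green) and with chromosome medians removed (purple). Under these settings Fis1, Mief2, Oma1, Mff and Dnm1l stay above 0, and Mfn1, Mfn2 and Opa1 below 0. Yme1l1 and Mief1 lie on both sides of 0.

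The order of the levels was almost the same in both groups. In reconstituted libraries Fis1 was highest at 140 ± 6.40 TPM, followed by Dnm1l (79.6 ± 1.62), Yme1l1 (68.8 ± 1.98), Mfn2 (38.7 ± 0.288), Mfn1 (28.1 ± 1.24), Mief1 (25.6 ± 1.47), Mff (21.5 ± 0.314), Opa1 (14.8 ± 0.530), Oma1 (10.4 ± 0.674) and Mief2 (10.1 ± 0.636; mean ± SD, n = 4). Neighbours in this order were separated in their ranges except Mfn1 from Mief1 and Oma1 from Mief2. In Opa1-/- libraries the first 4 kept these places at 169 ± 14.2, 80.4 ± 0.898, 68.9 ± 5.96 and 32.2 ± 4.89 TPM. The range of Mfn2 there reached into those of Mief1 and Mfn1. Below it Mief1 (25.0 ± 2.95), Mfn1 (23.9 ± 1.80) and Mff (23.5 ± 1.31) overlapped each other, as did Opa1 (13.9 ± 1.05) with Mief2 (12.8 ± 1.00), and Mief2 with Oma1 (11.5 ± 0.867). Mief2 was above Oma1 in 4 of 4 Opa1-/- libraries and below it in 3 of 4 reconstituted libraries.

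For Mfn2, Mief1, Mfn1 and Opa1, replicate 4 was the Opa1-/- library farthest from its group mean. In that library, Mfn2 was 0.33, Mief1 0.25, Yme1l1 0.15, Mfn1 0.14 and Opa1 0.14 below the group mean on the log2 scale, whereas Fis1 was 0.11 and Mff 0.08 above it. Among the 7 longest of the 10 genes, Mff was the one above the mean there, and the shorter Mief2 was 0.10 below it. The deviations of the reconstituted libraries were smaller, with none beyond 0.11 in either direction.

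**Figure D4:**
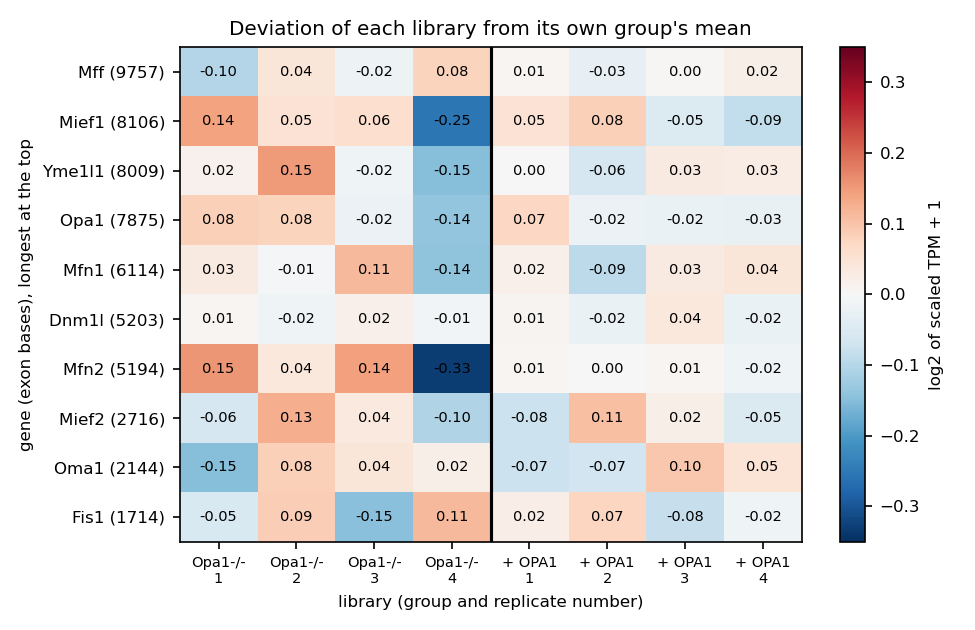
Deviation of each library (columns, by group and replicate number) from its own group's mean for the 10 genes (rows, longest exon length at the top), as log2 of scaled TPM + 1, red above and blue below the mean. Opa1-/- replicate 4 has the deepest values, -0.33 for Mfn2 and -0.25 for Mief1, while the reconstituted libraries stay within 0.11 of their mean.

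The genes whose levels followed Opa1 most closely over the 8 libraries, among 7989 genes with a mean of 10 TPM or more, were Dgcr8, a subunit of the microRNA processor (Pearson r = 0.98, Spearman rho = 0.79), Egr3, an early growth response factor (0.97 and 0.90), Atl2, an endoplasmic reticulum fusion GTPase (0.96 and 0.64), Rnmt, the mRNA cap methyltransferase (0.96 and 0.88), and Zdhhc20, a palmitoyltransferase (0.96 and 0.74). Leaving out the 2 libraries whose Opa1 level was farthest from the median, r was 0.71 to 0.86. These values are a description, with no test: the genes share libraries and scaling with Opa1, and all 5 are longer than the median gene, at 4406 to 9844 exon bases. None of the 5 passed the group test, with adjusted p from 0.109 to 0.315. Among the other 9 genes, r with Opa1 was highest for Mfn2 (0.83) and Mief1 (0.79), the genes that were lowest with it in Opa1-/- replicate 4, and most negative for Mff (-0.69).

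Partner genes of the same pathway, from lists chosen with earlier results of these data known, were counted in the same way. Of 36 genes 33 were tested, and 5 rose, 3 fell and 25 did not pass, against the 16.3% and 16.8% of all genes called higher and lower. The median difference over the 33 was -0.05. Gdap1 and Pld6 were among those below the filter, at 0.120 and 0.696 TPM or less in every library. The ubiquitin ligase March5, listed in the files as 5-Mar and matched by its identifier, was at 135 ± 3.39 against 133 ± 2.24 TPM (adjusted p = 0.758).

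The largest change among these partners was in Miga1, which encodes mitoguardin 1, an outer membrane protein that supports fusion. It was at 5.46, 5.58, 5.40 and 5.03 TPM in Opa1-/- libraries and at 3.09, 3.15, 3.61 and 3.20 TPM in reconstituted ones. The groups lay well apart, and Miga1 rose by 0.58 (SE 0.07, adjusted p = 0.000321), with the call kept in all 20 alternative analyses. With 0.1 TPM added before the log in place of 1 TPM, the rise of Miga1 was 0.70. Of the 3 tested genes listed for fusion it was the one that passed, and its paralog Miga2 was at 18.2 ± 1.07 against 19.96 ± 0.228 TPM (-0.13, adjusted p = 0.0751). Of 7 tested fission genes 1 passed, Dnm2, a dynamin of membrane scission, which rose by 0.13 (adjusted p = 0.0279). On deposited TPM the adjusted p of Dnm2 was 0.252. It was above 0.05 without Opa1-/- replicate 1, 2 or 3 (0.0506 to 0.0702), without reconstituted replicate 1, 2 or 4 (0.0533 to 0.0897) and without both libraries numbered 3 (0.0823), and with chromosome medians removed it was at 0.03 (adjusted p = 0.551).

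Of 13 genes of inner membrane processing, 3 rose, 1 fell and 9 did not pass, with levels given from the reconstituted to the Opa1-/- group. Pmpcb, a subunit of the matrix peptidase that removes import signals, rose from 52.6 ± 2.14 to 60.8 ± 3.67 TPM (0.20, adjusted p = 0.0154), and did not pass with chromosome medians removed (0.0723). The inner membrane peptidase genes Immp2l and Immp1l rose by 0.32 (adjusted p = 0.0334) and 0.18 (adjusted p = 0.0407). Immp2l was at 0.0598 with the replicate number as a block, and both calls were lost without Opa1-/- replicate 2, without any 1 of the reconstituted libraries, without both libraries numbered 3, and with no filter on low values. Immp1l did not pass on deposited TPM either (0.0552). Without Opa1-/- replicate 4, Immp2l rose by 0.23 and Immp1l by 0.13. Afg3l2, a subunit of the matrix AAA protease, was the gene that fell, from 90.0 ± 1.97 to 81.7 ± 4.81 TPM (-0.14, adjusted p = 0.0492). That call was lost in 16 of 20 alternatives, all but 1 of those leaving out a library among them, and its value was -0.06 with the trends along length and GC content removed. The prohibitins Phb and Phb2, which form a scaffold in the inner membrane, did not pass (adjusted p = 0.430 and 0.0990).

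In the remaining lists 1 gene each passed, and both were lower. Vcp, the AAA ATPase that extracts ubiquitinated proteins such as mitofusins from the outer membrane, fell from 398 ± 14.3 to 331 ± 18.0 TPM (-0.27, adjusted p = 0.00310), and was at -0.12 (adjusted p = 0.0969) with chromosome medians removed. The other 4 of 5 tested genes of ubiquitin and mitophagy control did not pass, among them Pink1 at 15.1 ± 2.72 against 18.3 ± 2.26 TPM (adjusted p = 0.135). Of 5 transport genes Trak1, a kinesin adaptor, fell from 9.17 ± 0.165 to 7.71 ± 0.781 TPM (-0.23, adjusted p = 0.0355). Its difference was -0.16 without Opa1-/- replicate 4. Its adjusted p was 0.0571 with the replicate number as a block, 0.0516 without Opa1-/- replicate 3, 0.0640 to 0.0849 without 1 of the reconstituted libraries, 0.101 without both libraries numbered 3, 0.101 on deposited TPM and 0.0739 with no filter on low values.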

How the data were processed

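Per the file headers the authors deposited TPM values for 49315 genes per library. The submitters' processing notes name bcl2fastq 2.17, STAR 2.5.2b, featureCounts and Subread 1.5.2, and the builds mm10 and GRCh38 without a role. Exon length, GC content and positions came from GENCODE M21 (GRCm38), which held 49056 of the 49315 identifiers. TPM times length stepped in whole reads for 93.5% to 93.9% of low values (within 0.05 of a read).

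Scale factors between libraries were trimmed means of log ratios, dropping 30% of ratios and 5% of levels at either end, from the 14272 genes that reached 1 TPM in 4 or more libraries. Over these genes limma 3.58.1 (R 4.3.3) fitted the group difference in log2(scaled TPM + 1), with its trend option. Tests were two-sided, adjusted by Benjamini-Hochberg and called below 0.05. In simulated libraries the procedure recovered 34% of changes of 1.25-fold and 88% of those of 1.5-fold, with 9 false calls among 165. Unlike the data, these libraries had the same spread for all genes and no trend along length. A gene that did not pass may thus still differ by 1.25-fold where its confidence interval reaches that far. Of the genes followed here that did not pass, Mfn2 had such an interval, at -29.0% to -3.41% in TPM + 1. The intervals of Opa1, Oma1, Yme1l1, Dnm1l, Mff and Mief1 lay within -14.9% (Mief1) and 21.8% (Oma1). Ratios of deposited TPM, 5 in all, had exact permutation tests. Python 3.11.15, pandas 2.3.3, numpy 2.4.6, scipy 1.17.1 and matplotlib 3.10.9 were used.

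The members, lists and ratios were chosen with earlier results of these data known. Named genes are the 10 members, up to 4 called genes with the largest change per partner list, and the 5 genes most correlated with Opa1. The most abundant gene of each marker list and the whole fibroblast list are named as well, as are Itgam and Myog, the markers at 0 in every library. Other partner genes named were chosen after their values were seen. The values of 1 partner gene are not reported here. Same-numbered libraries of the 2 groups deviated together (r = 0.12 to 0.32 over 9416 genes), a pairing found in the data and not stated by the labels. Differently numbered libraries were at -0.32 to 0.11, so the lowest same-numbered value was hardly above the highest of these. No libraries of a group agreed within sampling noise (chi-square per degree of freedom 4.72 or more). Alternatives were other scalings, filters and pseudocounts, a replicate block, chromosome medians removed, length and GC trends removed by splines with 4 degrees of freedom, limma-voom on recovered reads, and libraries left out.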

Additional observations from a re-analysis of the deposited data

Results flagged for a closer look

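In 30 groups of 4 libraries, 20 of levels and 10 of ratios, the extreme library was compared with the rest of its group, and chance alone would single out about 5% of groups. A gap of this size was seen in 2. Opa1 was at 15.6 TPM in Opa1-/- + OPA1 replicate 1, while the other reconstituted libraries were at 14.5 to 14.6 TPM. The Fis1 to Mff ratio was 6.59 in Opa1-/- replicate 3 and 7.37 to 7.45 in the other Opa1-/- libraries.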

How the results depend on the processing

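Opa1 (-0.11 to -0.01) and Dnm1l (0.01 to 0.08) passed in none of 20 alternatives. The number of the 10 genes called lower, 1 as reported, was 0 on deposited TPM, 2 over protein-coding genes, with limma-voom and with length and GC trends removed (also with the replicate block added), and 0 to 2 when 1 library was left out. Yme1l1, called in no alternative, changed sign to 0.029 with upper-quartile scaling, 0.020 with chromosome medians removed, 0.11 with length and GC trends removed (also with the replicate block) and 0.011 without both libraries numbered 3, and ranged from -0.049 to 0.050 when 1 library was left out. Mief1 was at 0.031 with length and GC trends removed, with or without the replicate block, and at -0.088 to 0.043 when 1 library was left out. The log2 ratio of Fis1 to Mff was -0.039 with those trends removed. The cause of these changes was not tested. With the replicate block alone Fis1, Mief2 and Mfn1 passed (0.00772, 0.00495 and 0.0291), and the block ended the calls of Immp2l and Trak1 and of no other named gene. For the ratios, the replicate block and leaving out a library were computed as values with no test.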

Other observations

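A pair of partner genes came close to the threshold without passing it, and they were picked out after their values were seen. Trak2, a paralog of Trak1 that also links mitochondria to kinesin, was at 21.9 ± 2.96 TPM in Opa1-/- and 26.1 ± 0.872 TPM in reconstituted libraries (-0.25, adjusted p = 0.0583), and every Opa1-/- library was below every reconstituted one. Dnajc19, a co-chaperone of the inner membrane that binds prohibitins, was at 16.8 ± 1.76 against 14.2 ± 1.01 TPM (0.23, adjusted p = 0.0517), with overlapping libraries.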
